A study of Chlorocebus aethiops with 12 samples.

Results

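COS-1 cells that carried the glucocorticoid receptor (GR) together with MDFIC were compared with cells that carried GR alone, both after 6 h of 100 nM dexamethasone (Dex). The comparison rests on 6 of the 12 arrays of the study, 3 from GR+MDFIC cells with Dex and 3 from GR cells with Dex, chosen by the sample labels. Of 32379 accessions and probe names on the array, 21267 were measured well above background on all 6 of these arrays and were tested. The other 11112 were not tested.

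COS-1 is a fibroblast-like line from African green monkey kidney. All 4 groups of the study were transfected with GR, were moved to charcoal-stripped serum the day after transfection, and held 3 biological replicates each. The groups differed in MDFIC (present or absent) and in treatment (Dex or vehicle for 6 h), and the study asked how MDFIC alters the GR transcriptome. The promoters of the constructs, the species of MDFIC, the share of cells transfected and whether an empty vector balanced the DNA are not given in the sources used here. In RNA from a whole culture, more cells that carry a construct and more RNA per cell cannot be told apart.

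GR rests in the cytoplasm in a chaperone complex, and a glucocorticoid such as Dex releases it to the nucleus, where it raises or lowers transcription of its target genes. MDFIC is a relative of the inhibitor of MyoD family proteins and carries the cysteine-rich I-mfa domain, through which such proteins bind transcription regulators. The array carries probes for human transcripts and was hybridised with monkey RNA. The files name a transcript by accession, or by probe where no accession is given, with no gene symbol. Levels of GR, MDFIC and the known Dex targets were therefore not looked up by name.

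Each array gave between 70.3% and 75.2% of its non-control spots well above background, and 1 spot in the whole set was saturated. The 3 GR+MDFIC Dex arrays all lay on slide 3, together with GR+MDFIC vehicle replicate 3. GR Dex replicate 1 lay on slide 1, and GR Dex replicates 2 and 3 lay on slide 2 with GR+MDFIC vehicle replicates 1 and 2. The mean 75th percentile of the signal was 850 on slide 1, 868 on slide 2 and 386 on slide 3. Slide 3 was also scanned at another detector setting (367 against 403 volts) and read with a later release of the extraction software. No slide held both groups, so that MDFIC and slide cannot be told apart within the 6 arrays, and no within-slide value exists. GR+MDFIC vehicle cells were on both slides, and replicate 3 minus the mean of replicates 1 and 2 gave for each transcript a slide 3 shift with no change of construct or treatment. The shift rests on 1 array against 2.

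With Dex, 451 transcripts were higher and 408 were lower in cells with GR+MDFIC than in those with GR alone. These 859 calls, at an adjusted p under 0.05 in limma, were 4.04% of the transcripts tested (2.12% higher and 1.92% lower). At an unadjusted p under 0.05 there were 4750. Calls had a median size of 0.76 (log2), with a median standard error (SE) of 0.14. All 859 had 3 GR+MDFIC values beyond the 3 GR values, which held for 6257 of all transcripts tested (29.4%).

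The difference between the groups tracked the slide 3 shift. Over the 21267 transcripts the 2 quantities had a Pearson correlation of 0.69 and a Spearman correlation of 0.49. They have no array in common, but both set slide 3 against other slides (slides 1 and 2 for the difference, slide 2 for the shift), and transcripts within an array are not independent. A shift was counted as like the difference where it had the same sign and at least 0.5 of the size. By this rule 476 calls had a like shift (261 higher and 215 lower) and 383 had none (190 higher and 193 lower). The shares were 55.4% of the calls and 52.6% of all transcripts tested. Near the border, 74 calls had a shift of 0.4 to 0.5 of the difference and 71 a shift of 0.5 to 0.6.

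The share depended on the size of the call. Of the 307 calls of at least 1 on the log2 scale, 250 (81.4%) had a like shift, 136 of 174 higher ones and 114 of 133 lower ones. Among the 295 calls under 0.5, 69 (23.4%) had one. The median size was 1.06 with a like shift and 0.37 without one, and the median SE 0.22 and 0.071. GR+MDFIC vehicle replicate 3 enters the spread from which the SE is taken, so that a transcript with a large shift has a large SE and passes only with a large difference. Only 57 calls of at least 1 had no like shift, 38 higher and 19 lower in GR+MDFIC cells.

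**Figure D1:**
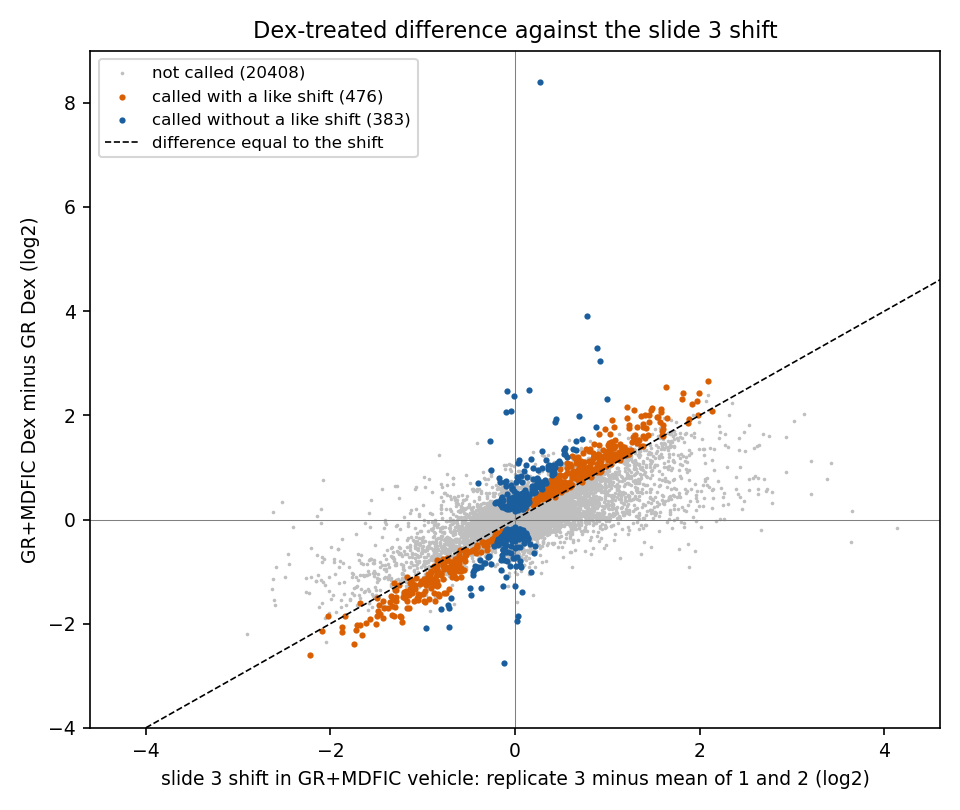
GR+MDFIC Dex minus GR Dex (vertical axis, log2) against the slide 3 shift in GR+MDFIC vehicle cells (horizontal axis, log2), 1 point for each of 21267 transcripts; the dashed line marks equal values. The 476 calls with a like shift lie along the dashed line, the 383 without one have shifts under 0.5 of the difference or of the other sign, and 1 transcript stands at 8.40 above all others.

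The spread between slides was of the same order as the difference between the groups. The slide 3 shift had a standard deviation (SD) of 0.43 on the log2 scale over the transcripts, and 1090 transcripts reached a size of 1. For GR+MDFIC Dex minus GR Dex the SD was 0.36 and 748 transcripts reached 1. GR Dex replicates on slide 2 against the one on slide 1 gave an SD of 0.23, and 177 transcripts reached 1. Replicates of 1 group on 1 slide differed with an SD of 0.24 to 0.29, a range that covers GR Dex and GR+MDFIC vehicle on slide 2 and GR+MDFIC Dex on slide 3. The value for slide 2 against slide 1 was below this range and that for slide 3 against slide 2 above it. These SDs average different numbers of arrays, and the difference between them was not tested.

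The largest difference in the comparison was the transcript NM_199072. It read -3.46, -3.20 and -3.27 on the 3 GR Dex arrays (log2, with the 75th percentile of the array at 0). On the GR+MDFIC Dex arrays it read 5.11, 4.88 and 5.28. All 6 arrays of GR+MDFIC cells were far above all 6 of GR cells, with or without Dex. In vehicle the values were -3.30, -3.18 and -3.22 in GR cells and 5.65, 5.53 and 5.86 in GR+MDFIC cells. The difference with Dex was 8.40 ± 0.11 (SE, limma, Benjamini-Hochberg adjusted p = 1.45e-10), against a slide 3 shift of 0.27. With slide as a fixed block it was 8.06 (limma, adjusted p = 1.17e-06). The vehicle difference, taken over slides 1 and 2 alone, was 8.82. A second probe of this accession read -2.18 ± 0.29 in GR Dex and -2.42 ± 0.015 in GR+MDFIC Dex cells (SD, n = 3), a difference of -0.24, and averaging both probes gave 4.08. The difference between the groups therefore depended on the probe, and whether the first probe reads RNA of a construct was not tested.

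The second largest higher call was A_32_P18072, a probe with no accession in the files. It read -2.23, -3.11 and -3.31 in GR Dex cells and 1.07, 1.01 and 0.99 in GR+MDFIC Dex cells. Its vehicle values were -1.99, -3.15 and -2.57 in GR cells, and 0.91, 1.06 and 1.77 in GR+MDFIC cells. Again no array of GR cells reached any array of GR+MDFIC cells. The difference with Dex was 3.90 ± 0.34 (SE, limma, Benjamini-Hochberg adjusted p = 5.37e-04), with a shift of 0.78. It was 3.45 with the slide block (limma, adjusted p = 0.0343) and 3.55 in vehicle.

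NM_032647 was the largest lower call without a like shift. It read -2.83, -2.82 and -2.79 in GR Dex cells and -5.83, -5.05 and -5.82 in GR+MDFIC Dex cells. In vehicle it read -2.59, -2.43 and -2.66 in GR cells. The GR+MDFIC vehicle arrays gave -3.36 and -3.32 on slide 2 and -3.47 on slide 3. The slide 3 array of vehicle-treated cells was thus close to its group, and the 3 arrays with both MDFIC and Dex were lower than all others. The vehicle means were -2.56 in GR and -3.38 in GR+MDFIC cells. The transcript was well above background on all 12 arrays. Its 3 lowest values nevertheless lay at the levels of the dimmest of 10 bins of transcripts by mean level, -6.65 to -4.64. The difference with Dex was -2.76 ± 0.18 (SE, limma, Benjamini-Hochberg adjusted p = 5.01e-05). It was -2.64 under a slide block (limma, adjusted p = 0.0385) and -0.78 in vehicle (limma, adjusted p = 0.0751). The test of the MDFIC effect with Dex against that with vehicle passed for 7 transcripts (0.0329% of those tested), of which 5 were calls with Dex, NM_032647 among them. Its value was -1.93 (SE 0.25, limma, adjusted p = 0.0484), and it did not pass with slide as a block (-1.84, limma, adjusted p = 0.331) or in 10 of the 12 fits that left out 1 array.

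NM_001169 came second among the lower calls without a like shift, but its shift of -0.97 was just under 0.5 of its difference. The GR Dex arrays read -3.06, -3.10 and -3.19 and the GR+MDFIC Dex arrays -4.71, -5.38 and -5.52. GR+MDFIC vehicle cells read -3.18 and -3.00 on slide 2 and -4.06 on slide 3. In GR vehicle cells it read -3.08, -3.13 and -3.24. The slide 3 vehicle array lay between the other vehicle arrays and the Dex arrays of its slide. The difference was -2.09 ± 0.27 (SE, limma, Benjamini-Hochberg adjusted p = 0.00703). The fit with a slide block gave -1.10, which did not pass (limma, adjusted p = 0.576).

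The largest higher call with a like shift was NR_040662. Its 3 GR Dex values were -4.97, -5.53 and -5.37, and its 3 GR+MDFIC Dex values were -2.62, -2.64 and -2.65. In GR+MDFIC vehicle cells it read -5.19 and -4.35 on slide 2 and -2.68 on slide 3, and in GR vehicle cells -5.15, -4.48 and -5.25. The 4 arrays of slide 3 were alike whether the cells had Dex or vehicle, and all others were low. The difference of 2.65 ± 0.51 (SE, limma, Benjamini-Hochberg adjusted p = 0.0310) came with a shift of 2.09 and was 0.73 with the slide block.

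A_24_P765569, the largest lower call with a like shift, mirrored it. It read -1.97, -2.25 and -2.23 in GR Dex cells and -4.38, -4.35 and -5.50 in GR+MDFIC Dex cells. GR+MDFIC vehicle cells read -2.19 and -2.04 on slide 2 and -4.33 on slide 3, and GR vehicle cells -2.16, -2.17 and -2.30. The difference was -2.59 ± 0.53 (SE, limma, Benjamini-Hochberg adjusted p = 0.0354), the shift -2.22 and the value with the slide block -0.29. NR_040662 and A_24_P765569 did not pass with slide as a fixed block (limma, adjusted p = 0.793 and 0.932). Both calls were also lost without any 1 of the 6 Dex arrays (limma, adjusted p of 0.0698 to 0.0959), while the differences stayed at 2.54 to 2.81 and -2.79 to -2.22. Under normexp background correction with the 75th percentile, which moved the median of all transcripts by 0.31, NM_032647, NM_001169 and A_24_P765569 stood at 0.25, 0.53 and 0.21, so that their direction turned and none passed. Under normexp with quantile scaling all 3 stayed lower and passed, at -1.04, -0.79 and -1.06 (limma, adjusted p = 6.47e-07, 0.00554 and 0.0157).

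**Figure D2:**
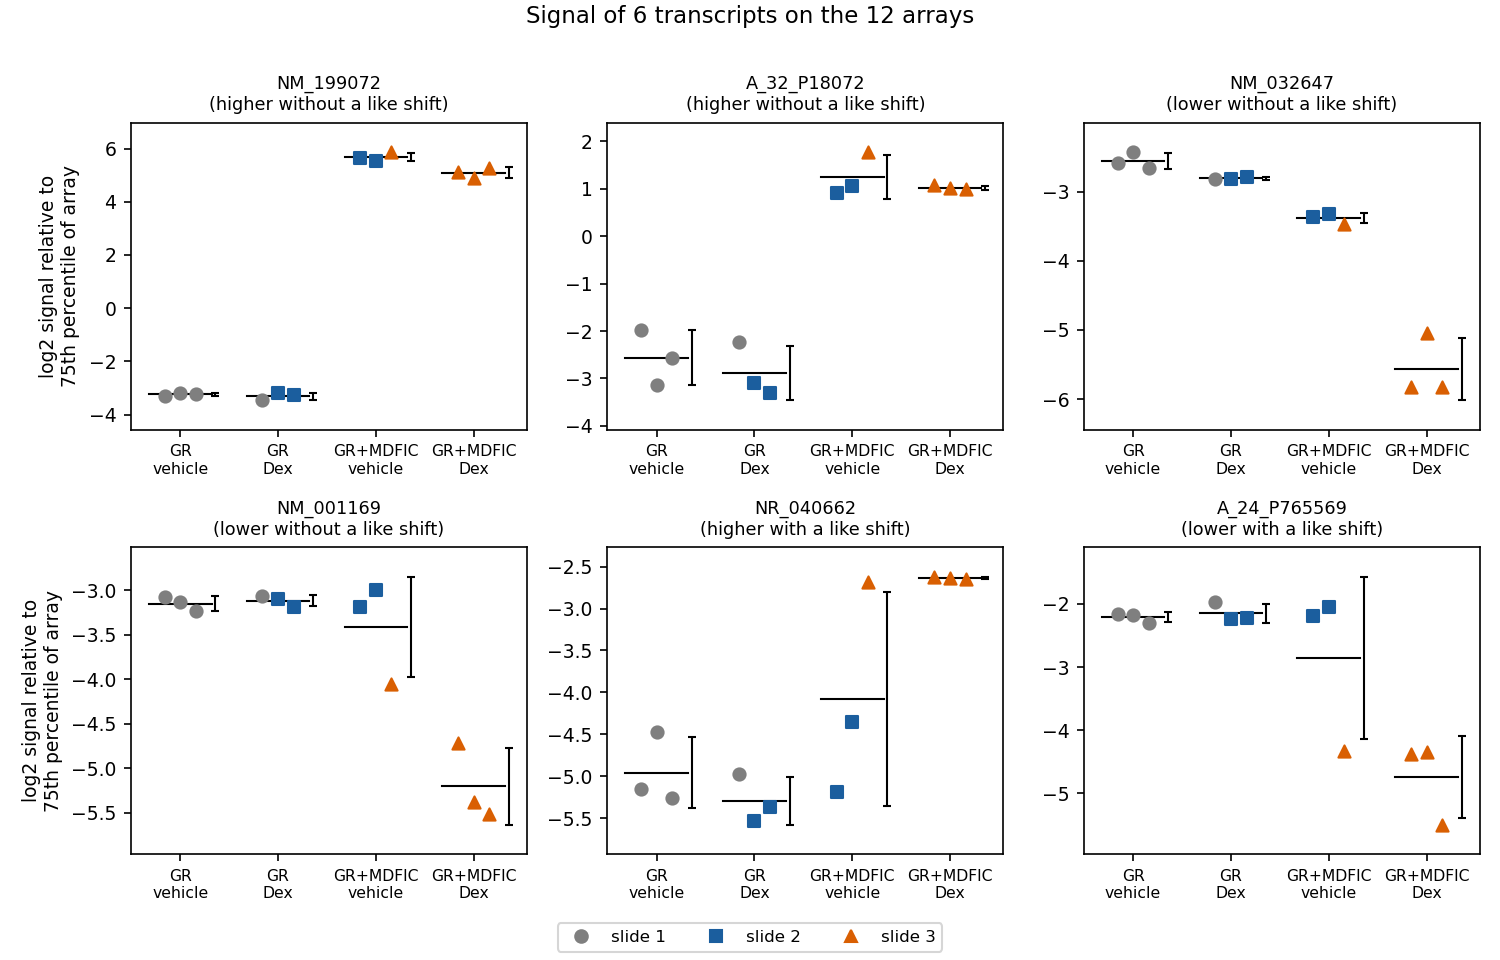
Signal of 6 transcripts on all 12 arrays (vertical axis, log2 relative to the 75th percentile of the array), by group; symbols mark the slide, the line is the mean and the bar is the SD of 3 arrays. NM_199072 separates the GR+MDFIC arrays from the GR arrays whichever slide they lay on, whereas NR_040662 and A_24_P765569 separate the 4 arrays of slide 3, GR+MDFIC vehicle replicate 3 included, from the rest.

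Beyond these, the 10 largest calls in each direction without a like shift were followed as ranks. The 10 higher ones had differences of 2.07 to 8.40 (median 2.48) and shifts of -0.10 to 0.99. With the slide block they ranged from 1.77 to 8.06 and 7 passed. In vehicle, on slides 1 and 2, all 10 were higher in GR+MDFIC cells, by 0.47 to 8.82, and 9 passed. Of these 10, 3 carry an NM accession, which marks a protein-coding transcript.

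The 10 lower ones had smaller differences, from -2.76 to -1.44 (median -1.79), with shifts of -0.97 to 0.03. The slide block gave -2.64 to -0.72 and 3 passed. Those were ranks 1, 4 and 5, with shifts of -0.12, 0.016 and 0.027. At the other ranks the shift was -0.97 to -0.47, with the sign of the difference and under 0.5 of its size. None of those other ranks passed with the slide block. In vehicle the values of the 10 ran from -2.35 to 0.27, 8 were above 0 and 1 passed. Of the 10, 8 carry an NM accession. The slide block, the shift and the vehicle difference all use GR+MDFIC vehicle replicates 1 and 2, so these values are not independent of each other.

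**Figure D3:**
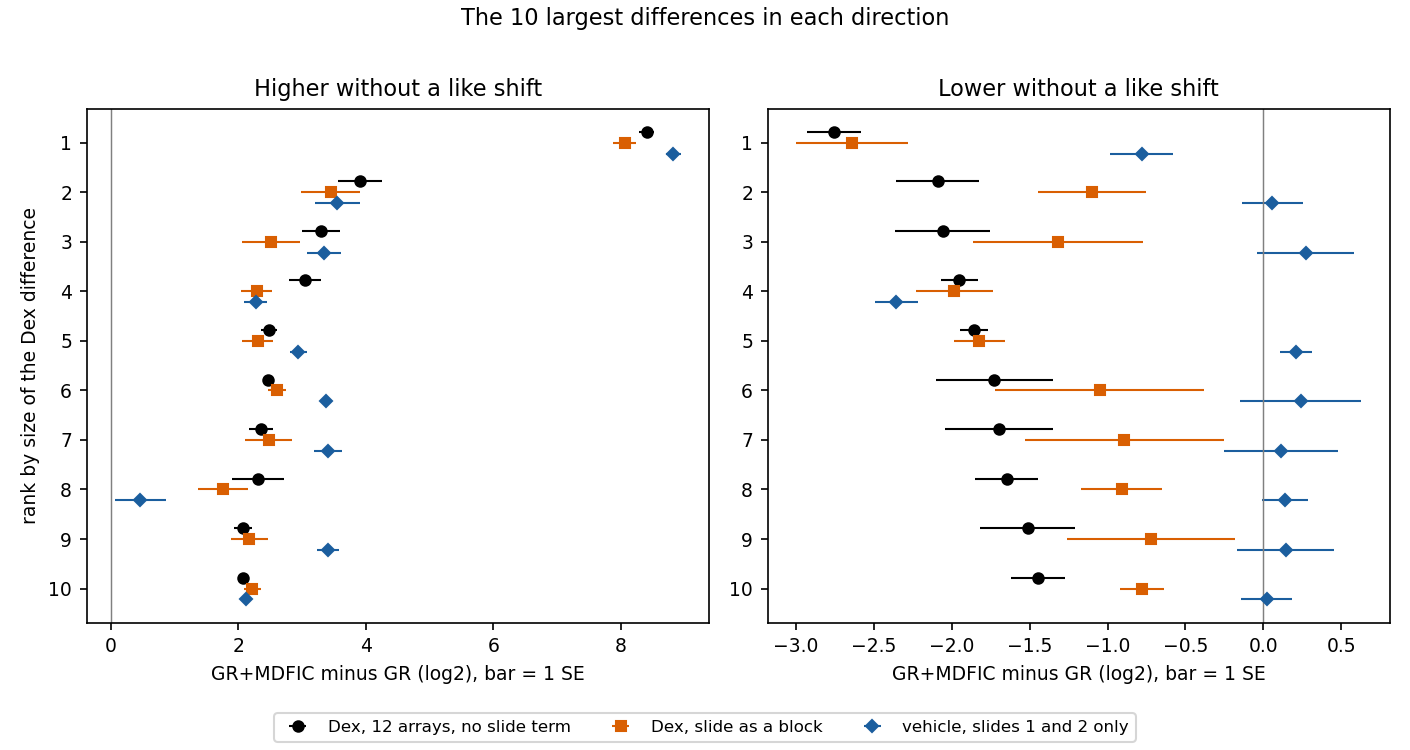
The 10 largest higher (left) and lower (right) calls without a like shift, by rank (vertical axis), with GR+MDFIC minus GR (horizontal axis, log2) with Dex, with Dex and slide as a block, and in vehicle on slides 1 and 2; bars are 1 SE. On the left the 3 values lie on the same side of 0 at every rank, and on the right 8 of 10 vehicle values lie above 0.

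The vehicle arrays of slides 1 and 2 gave a second look at MDFIC, in which slide 3 entered only through the estimate of the spread. There 637 transcripts passed, 3% of those tested, 233 higher and 404 lower in GR+MDFIC cells. Without GR+MDFIC vehicle replicate 1 there were 249, 133 higher and 116 lower, so that the balance of directions turned, and without any 1 GR vehicle array 281 to 290. This contrast sets slide 2 against slide 1. Its arrays are not those of the Dex comparison, although the spread was estimated over all groups in both. In both comparisons and in the same direction 109 transcripts passed, 75 higher and 34 lower, which is 12.7% of the Dex calls and 17.1% of the vehicle calls. In opposite directions 1 passed. Over all 21267 transcripts the Dex and vehicle differences had a Pearson correlation of 0.043 and a Spearman correlation of 0.118, and the Pearson value was 0.012 without NM_199072.

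The larger calls were also set beside their vehicle values. Of the 174 higher calls of at least 1, 151 (86.8%) were also higher in vehicle, with medians of 1.38 with Dex and 0.31 in vehicle. Of the 133 lower calls of at least 1, 21 (15.8%) were also lower in vehicle, with medians of -1.42 with Dex and 0.15 in vehicle. Over all transcripts tested 55.9% had the same sign. The median slide 3 shift was 1.01 for the higher and -1.05 for the lower set. With the slide block the medians were 0.45 and -0.30. The part of slide 3 in these shares was not tested.

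With slide as a fixed block, 48 transcripts passed (0.226% of those tested), 21 higher and 27 lower, with a median size of 1.78. Without the slide term the same 48 had a median size of 0.60, and 14 of them had the other sign, none of which was a call there. Both fits called 21 transcripts, 16 higher and 5 lower, and none of them had a like shift. In vehicle on slides 1 and 2, 20 of the 21 had the same sign. For all transcripts tested this share was 55.9%, and for the 859 calls 68.9%. GR+MDFIC vehicle replicates 1 and 2 enter the block fit and the vehicle difference in the same direction. A pass with the block therefore favours a shared sign, and nothing is read from the 20. The block takes its slide 3 term from the same vehicle arrays as the shift, so that a call with a large shift is reduced by construction.

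The number of calls changed with each array that was left out. Without 1 of the 6 Dex arrays a group of the comparison keeps only 2. With all 12 arrays, 49 calls had an adjusted p under 0.01 in limma. The part of lower replication in the counts below was not tested. Leaving out the GR Dex arrays singly, in order of replicate, gave 104, 95 and 73 calls, and leaving out the GR+MDFIC Dex arrays gave 140, 194 and 120. The balance of directions moved as well, from 70 higher and 34 lower without GR Dex replicate 1 to 58 higher and 136 lower without GR+MDFIC Dex replicate 2. The GR vehicle arrays, which enter through the shared estimate of the spread, gave 376, 127 and 237 when left out in the same way. The count was 949 and 1082 without GR+MDFIC vehicle replicates 1 and 2, and 2173 without replicate 3, the slide 3 array of that group. The 6 Dex arrays alone gave 1637, of which 61.0% were higher, against 52.5% of the 859. In all 12 fits that left out 1 array, the same 55 transcripts passed, 32 higher and 23 lower. None of the 55 had a like shift, their sizes ran from 0.29 to 8.40, and 19 also passed with slide as a block. GR+MDFIC vehicle replicate 3 widens the SE of a transcript with a large shift, so that this absence is in part built in.

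**Figure D4:**
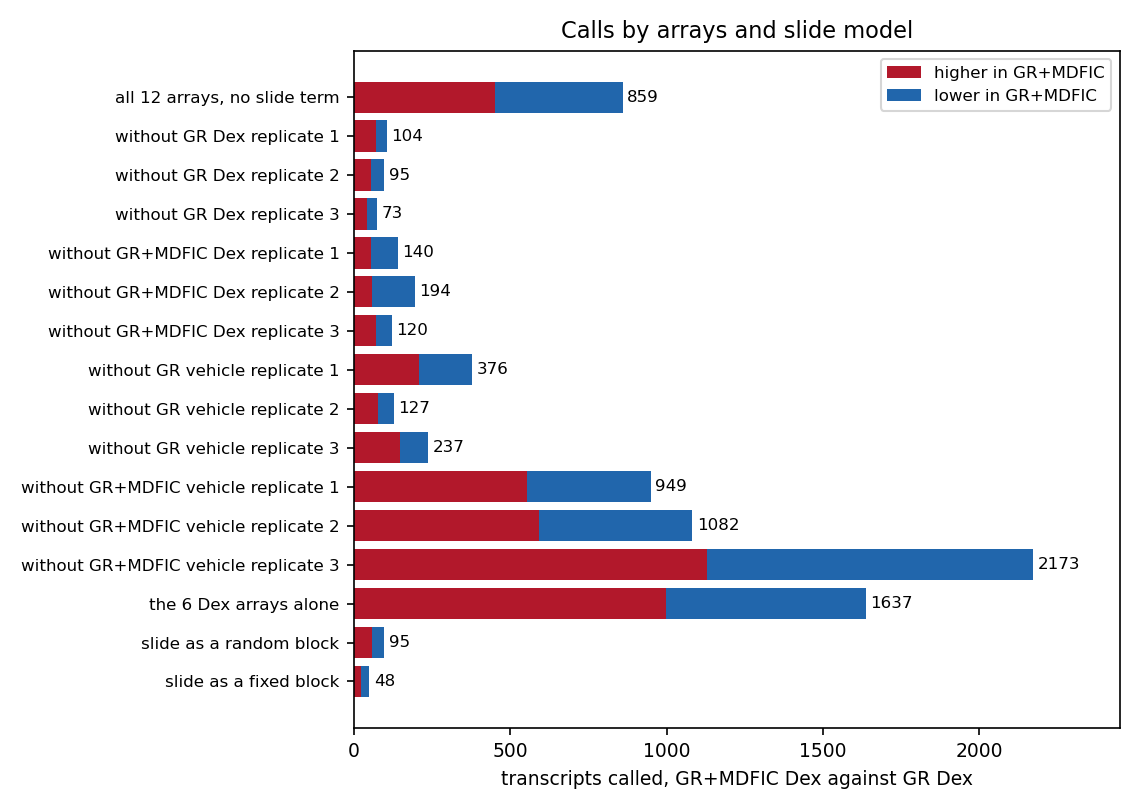
Transcripts called in GR+MDFIC Dex against GR Dex (horizontal axis, number at an adjusted p under 0.05 in limma), higher and lower in GR+MDFIC, with all arrays, with each array left out, and with slide in the model. The count of 859 falls to between 73 and 194 without any 1 of the 6 Dex arrays, rises to 2173 without GR+MDFIC vehicle replicate 3, and is 48 with slide as a fixed block.

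Calls were concentrated among dim transcripts. The dimmer 10633 transcripts held 682 calls (6.41%) and the brighter 10634 held 177 (1.66%), so that 79.4% of the calls were dim. Calls with a like shift numbered 436 in the dimmer and 40 in the brighter part, and calls without one 246 and 137. In 10 level bins of equal size, the share called peaked at 8.84% in bin 3 and was 1.13% in bin 10, the brightest. In the dimmest bin 77 calls were higher and 23 lower. In the brightest bin 2 were higher and 22 lower.

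Medians over all transcripts of a bin, called and not called together, also fell with level, and least so in vehicle. The median difference with Dex was 0.17 in the dimmest bin and -0.042 in the brightest. The median slide 3 shift was 0.21 and -0.073 in these bins, and the vehicle difference of slides 1 and 2 was 0.052 and -0.0066. The 10 spike-in control probes, made for RNA that is added to each labelling reaction and printed 32 times each, differed by -0.098 to 0.36 between the groups (median -0.084). The 2 above 0 were dim, at -6.81 and -5.70. For none of the 10 did the 3 values of each group lie apart.

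**Figure D5:**
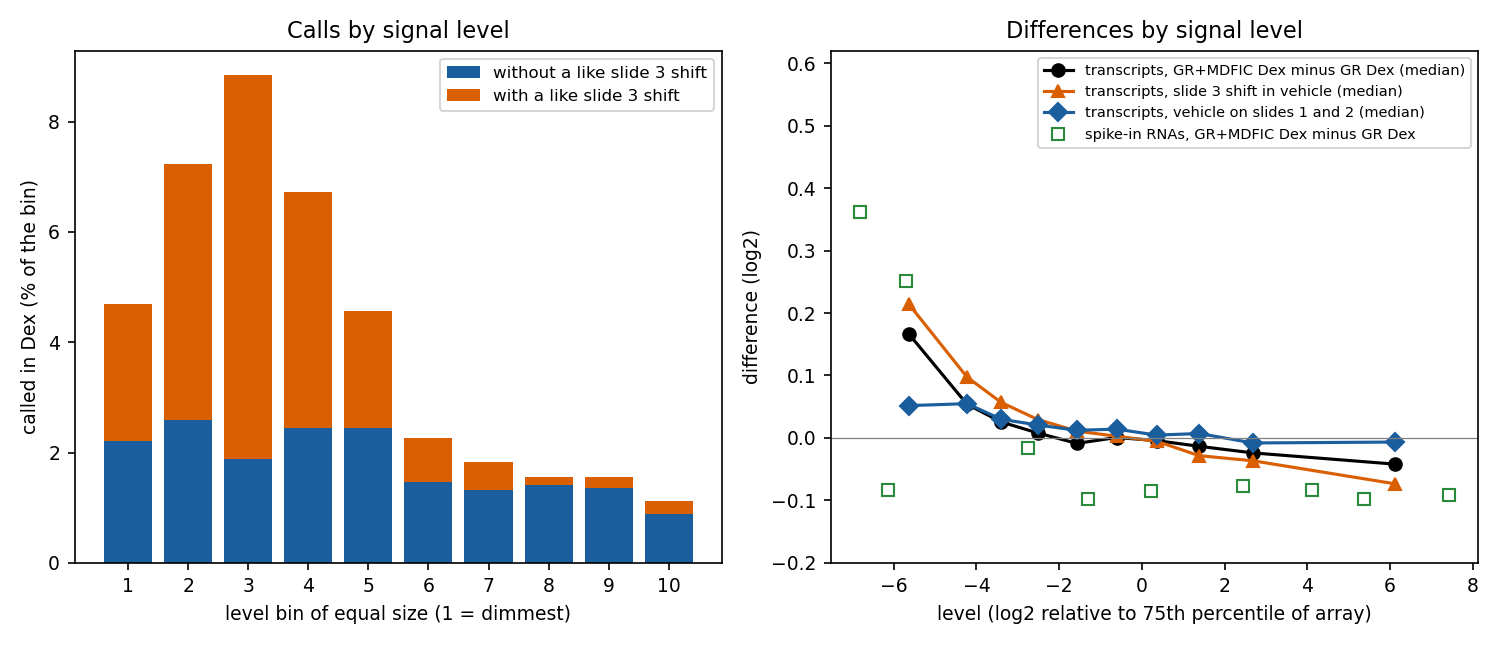
Left, share of transcripts called (vertical axis, percent) in 10 bins of the mean level (horizontal axis, 1 is the dimmest), split by a like slide 3 shift. Right, median difference (vertical axis, log2) against level (horizontal axis, log2 relative to the 75th percentile) with Dex, for the slide 3 shift and in vehicle on slides 1 and 2, with 10 spike-in controls as squares; the Dex median and the shift fall together from 0.17 and 0.21 in the dimmest bin to -0.042 and -0.073 in the brightest.

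The share called also differed by kind of identifier. Of 15096 NM accessions 495 passed (3.28%), of 3889 other accessions 251 (6.45%), and of 2282 probes with a name only 113 (4.95%). Among the NM calls, 120 were higher and 131 lower without a like shift, and 244 had a like shift.

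Some accessions had further probes. For called transcripts 120 further probes were measured, 85 of them (70.8%) with the same sign and 35 (29.2%) with the same sign and at least 0.5 of the size. Over all transcripts tested the shares were 58.5% and 45.5% of 5921 further probes. Called probes were chosen by their own difference, so that nothing is read from the gap between these shares. The probe with the highest mean level stood for each accession, and averaging all its probes gave 849 calls.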

How the data were processed

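The 12 arrays were one-colour Agilent arrays of 45015 spots (43376 of them non-control, 41000 probes), hybridised with Cy3-labelled RNA made from 500 ng of total RNA, per the labels. The deposited values are linear intensities. Feature Extraction subtracted the background and gave a processed signal per spot, per the file headers. The submitters' processing notes name Agilent Feature Extraction version 12. The series' own deposited table gave identical intensities (largest difference 0). Deposited flags per spot, other values of 0 or 1, mark signal well above background, saturation and outliers, per the file headers.

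Signals were put on the log2 scale and each array's 75th percentile of non-control spots was subtracted. Outlier spots were dropped, which left 27 missing values in the tested set, spots of 264 repeated probes were averaged, and saturated spots were kept. Probes needed signal well above background on the 6 Dex arrays and at least 2 unflagged arrays per group, and 27188 remained. The probe of highest mean represented its accession. Groups came from the labels, which call the replicates biological. A group-means model over the 12 arrays (8 residual degrees of freedom, 6 with slide as a fixed block) was fitted in limma 3.58.1 (R 4.3.3), with two-sided tests and Benjamini-Hochberg adjustment over the 21267 transcripts. An adjusted p under 0.05 counted as a call. The vehicle comparison left out GR+MDFIC vehicle replicate 3. Precision is limited by the number of arrays. The procedure was run on simulated data with planted differences, independent noise and no slide effect. That run cannot show how the procedure handles slides. Files were loaded through jsonlite 2.0.0 and the data.table package, version 1.17.8, and figures drawn with matplotlib 3.10.9 in Python 3.11.15.

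The members, lists and tests were chosen with earlier results of these data known. The planned rule named the 10 largest calls in each direction without a like shift, the 4 largest in each direction with one, and members of 20 gene and marker lists (541 entries) by symbol. The identifiers of the files matched 0 of these entries, so that no list, no check of GR or MDFIC by name and no cell type marker was analysed here. The largest 2 calls in each direction without a like shift and the largest 1 with one are named by identifier and the others given as ranks. Alternatives covered scaling, background correction, filters, slide and replicate blocks, variance priors, thresholds and arrays left out.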

Additional observations from a re-analysis of the deposited data

Results flagged for a closer look

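NM_032647 differed in its MDFIC effect between the treatments. GR+MDFIC minus GR was lower by 1.93 on the log2 scale with Dex than with vehicle: the difference of the 2 effects was -1.93 ± 0.25 (SE, limma interaction, Benjamini-Hochberg adjusted p = 0.0484, n = 3 per group). Of all 21267 transcripts, 7 passed this test (0.0329%), and 5 of these were also calls with Dex. Among the ranked calls without a like shift, higher rank 6 (-0.88 ± 0.11, SE, limma interaction, adjusted p = 0.0484) and lower rank 5 also passed. Lower rank 5 stood at -2.07 ± 0.12 (SE, limma interaction, adjusted p = 3.18e-04). Its slide 3 shift was 0.027, and its difference with Dex under the slide block, which is another contrast, was -1.82. For higher rank 6 and lower rank 5 the interaction was not computed with slide as a block or with arrays left out. For NM_032647, the interaction with slide as a fixed block was -1.84 and did not pass (limma, adjusted p = 0.331). Leaving out each of the 12 arrays in turn gave -2.19 to -1.80 with an adjusted p from 7.56e-05 to 0.207, and the call was lost in 10 of these 12 fits. All arrays with both MDFIC and Dex lay on slide 3, where the vehicle array of GR+MDFIC cells read -3.47.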

How the results depend on the processing

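The 859 Dex calls, the 383 without a like shift, the 476 with one and the 637 vehicle calls depended on several choices. Normexp with the 75th percentile gave 9 (88.9% higher), 9, 0 and 8. Its offset was 50, no other offset was tested, and the median of all transcripts moved by 0.31. It turned NM_032647 to 0.25, NM_001169 to 0.53 and A_24_P765569 to 0.21; NM_032647 kept its direction and call in the other 26 of 27 alternatives. Normexp with quantile scaling, chosen after seeing the data, left these 3 at -1.04, -0.79 and -1.06, all passing, and gave 1530 Dex calls, 1023 of them with a like shift, and 1694 vehicle calls. Slide as a fixed block gave 48 (43.8% higher), 47 and 1 with a like shift, and as a random block (correlation 0.0927) 95, 85 and 10. The 6 Dex arrays alone gave 1637, with 1269 of like shift. A filter on at least 1 group gave 1323, with 779 of like shift. An intensity trend with robust variance gave 1352, 812 with a like shift and 1027 in vehicle. No filter gave 247 in vehicle. An adjusted p under 0.01 left 49, 49, 0 and 130. Shares of 0.25 and 0.75 for a like shift gave 226 and 607 calls without one, and 0.75 gave 252 with one. Leaving out 1 array gave 73 to 2173 Dex calls, 71 to 397 without and 2 to 685 with a like shift, and 249 to 471 in vehicle; the fits without GR vehicle replicates or GR+MDFIC vehicle replicates 1 and 2 were chosen after seeing the data. The 4 counts kept within 1.5 times under 9 of 27, 13 of 28, 10 of 28 and 7 of 16 alternatives. NM_199072 (4.08 to 8.51) and A_32_P18072 (3.01 to 4.23) passed under all 27.

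Deviations of same-numbered Dex arrays correlated by 0.029, -0.020 and 0.118. These arrays lay on different slides, so the values cannot settle whether replicate numbers pair the samples. With the replicate number as a block there were 740 calls, of which 38.8% were higher, against 52.5%. Gene list alternatives were not run, since no list matched. No split by like shift exists without GR+MDFIC vehicle replicate 3. Normexp used median spot signals, the mean signal not being used here. Signal over background limits the dim transcripts, where most calls lie.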

Other observations

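Some transcripts were outside the comparison because they were measured in 1 group only. Of all 32379 accessions and probe names, 273 were well above background on all 3 GR+MDFIC Dex arrays and on no GR Dex array. In GR+MDFIC vehicle cells, 222 of these were measured on replicate 3 (slide 3) and 11 on both replicates 1 and 2 (slide 2). In the other direction, 346 of the 32379 were measured on all 3 GR Dex arrays and on no GR+MDFIC Dex array. Of these, 49 were measured on GR+MDFIC vehicle replicate 3 and 234 on both replicates 1 and 2. How many of all accessions were measured on these vehicle arrays was not counted, so the vehicle counts have no base share beside them. The part of the slide in these counts was not tested.

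NR_040662 had further probes below the background filter, which gave differences of 1.37 and 1.06 with Dex, against 2.65 for the probe that stood for it.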
